A study of Mus musculus with 6 samples.

Results

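The genes described are Src, Lyn, Fyn, Fgr, Yes1 and Lck, which encode SRC family tyrosine kinases, Csk, which encodes the kinase that restrains them, and Cbl and Cblb, which encode ubiquitin ligases that act on signals these kinases start. They were chosen by gene name, 9 of the 28795 genes in the deposited table, and each name matched 1 gene. Their transcripts were sequenced in bone marrow monocytes of the mouse, which can become macrophages or osteoclasts. The cells were kept in M-CSF (50 ng/ml), a cytokine for macrophage survival, and given RANKL (50 ng/ml), the cytokine that turns precursors into bone-resorbing osteoclasts. There were 3 libraries at day 5 of RANKL and 3 at day 0. The labels give no strain, sex or age and no genetic change. RANKL stands in the treatment label on both days, so grouping rests on the time label. No culture kept for 5 days without RANKL was analysed here, so RANKL and time in culture cannot be told apart. The labels do not tie libraries to separate cultures or animals, so the spread behind each p-value is that between these libraries and may be technical.

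SRC family kinases are membrane-bound tyrosine kinases held in a closed, inactive shape when a tyrosine in their tail is phosphorylated by CSK. Tail phosphatases and binding to activated receptors or integrins open them. Src is known above all for bone: mice without it develop osteopetrosis, because their osteoclasts form but fail to build the ruffled border and the podosome ring used to resorb bone. CBL and CBLB are recruited to activated receptors, tag them for degradation, and also serve as adaptors downstream of SRC in osteoclasts. LYN and FGR are known for their part in macrophages and granulocytes, and LCK is the kinase of the T cell receptor.

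Libraries held 70888492 to 73234377 counts at day 5 and 64616609 to 82721513 at day 0. Replicate 1 of day 0 held 4.09% of its counts in a gene related to 18S ribosomal RNA, a share of 0.158% to 0.507% elsewhere. Mitochondrial genes took 3.78% to 4.37% of counts at day 5 and 1.90% to 2.11% at day 0, and the part of this in the results was not tested. The summed level of 12 osteoclast markers was 27501 to 30839 CPM at day 5, against 768 to 989 CPM at day 0, where CPM are TMM-scaled counts per 1e+06. The sum of 12 macrophage markers was 7992 to 9421 CPM at day 5 and 21841 to 25266 CPM at day 0. The sum of 15 stromal and osteoblast markers was 10674 to 11662 CPM at day 5 and 15112 to 20658 CPM at day 0, which shows abundant collagen transcripts on both days beside those of the labelled monocytes. In such bulk samples, fewer cells of a type and less RNA per cell cannot be told apart.

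Between the days the kinases changed places. Src rose 3.94-fold and Fgr 2.26-fold, while Lyn fell 2.12-fold and Fyn 1.71-fold. Csk and Cbl fell and Cblb rose, by less than 2-fold each, Yes1 did not pass the test, and Lck was close to 0 throughout. A gene passed at an adjusted p under 0.05 (edgeR, quasi-likelihood test, Benjamini-Hochberg over all tested genes). Tested genes reached 1 FPKM, the authors' count scaled for gene length and depth, in 3 or more of the 6 libraries. Of the 9 genes, 8 met that filter and 7 passed, 3 of them higher and 4 lower at day 5. Among all 11908 genes tested 55.5% passed, 26.6% higher and 28.8% lower, so the number that passed says little about this group. With a change of 2-fold or more added, 2 were higher (Src and Fgr) and 1 lower (Lyn), where over all genes 12.3% were called in either direction, 5.84% higher and 6.47% lower. The libraries of the days did not overlap for 7 of the 8, and for 63.3% of all tested genes. The median log2 difference was -0.23 over the 8 and -0.00 over all tested genes, and the median size was 0.80 and 0.32.

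**Figure D1:**
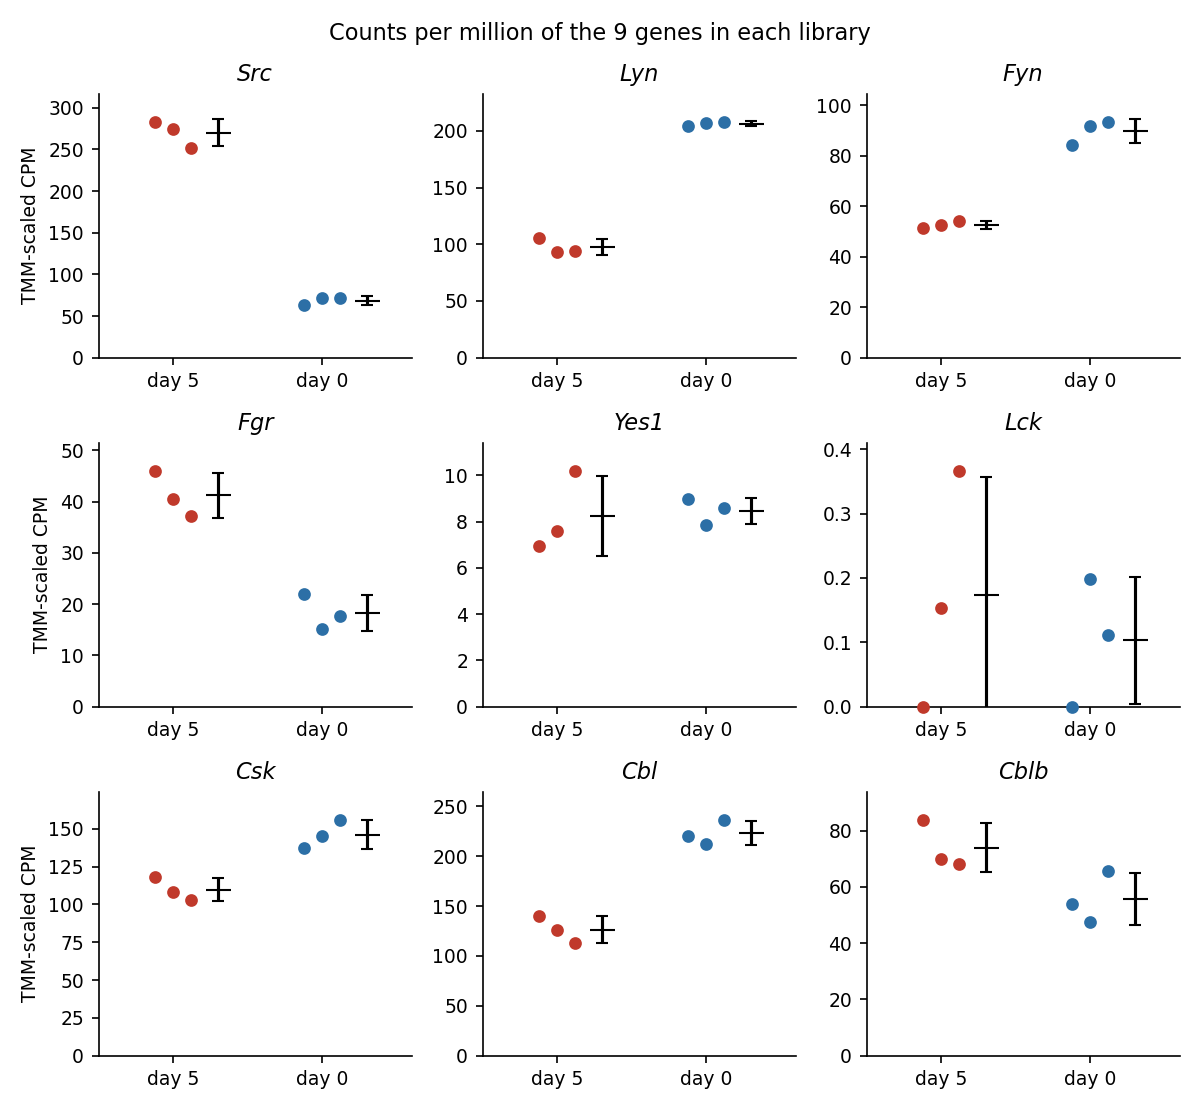
Level of each of the 9 genes in CPM after TMM scaling (vertical axis, from 0, a different scale in each panel) in the 3 libraries of day 5 (red) and of day 0 (blue); the bar beside each group is the mean ± SD. Src (251 to 283 against 62.6 to 71.8 CPM) and Lyn (93.1 to 106 against 204 to 208 CPM) separate the days in opposite directions, and Yes1 and Lck overlap.

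Src, the kinase that osteoclasts need for resorption (ENSMUSG00000027646, plus strand, chr2:157418444-157471838, in the table's coordinates, which match GRCm38), had 283, 275 and 251 CPM at day 5 and 62.6, 71.8 and 71.1 CPM at day 0. All 3 libraries of day 5 lay above all 3 of day 0, by more than 3 times. The means were 269.9 ± 16.4 CPM at day 5 and 68.5 ± 5.08 CPM at day 0 (SD, n = 3 each), which is 1.98 ± 0.08 on the log2 scale (SE, adjusted p = 5.12e-09). By size of increase it was number 253 of the 11908 tested genes. By FPKM it was number 716 at day 5 and number 3089 at day 0. Fgr, a myeloid kinase that works with integrins and Fc receptors (ENSMUSG00000028874, plus strand, chr4:132974095-133001910), had 46.0, 40.5 and 37.2 CPM at day 5, against 21.99, 15.1 and 17.6 CPM at day 0. The days did not overlap, and the log2 difference was 1.18 ± 0.14 (adjusted p = 2.27e-05). Per length, Fgr overlapped Fyn at day 5 and Cblb at day 0.

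Lyn, which in myeloid cells is known both for starting signals and for limiting them through inhibitory receptors (ENSMUSG00000042228, plus strand, chr4:3678115-3813122), had 106, 93.1 and 94.0 CPM at day 5 and 204, 207 and 208 CPM at day 0. No library of day 5 reached the lowest of day 0. The means were 97.6 ± 7.18 CPM at day 5 and 206.6 ± 1.88 CPM at day 0, or -1.08 ± 0.07 on the log2 scale (adjusted p = 2.20e-07). It was -0.99 in limma on log2(FPKM + 1), just short of 1 in size. Exons of Lyn share 248 bases with a gene on the opposite strand, and the sources used here do not say whether counting used strand. Fyn, a widely expressed family member (ENSMUSG00000019843, plus strand, chr10:39368855-39565381), had 51.2, 52.4 and 54.2 CPM at day 5, against 84.3, 91.6 and 93.4 CPM at day 0. The days were again apart, with a log2 difference of -0.77 ± 0.07 (adjusted p = 2.69e-06). Macrophage markers fell over the same days (11 of 12 passed as lower and 1 as higher). So did most stromal markers tested (9 of the 11 lower, 1 higher). Among all tested genes 28.8% were lower and 26.6% higher. Of the stromal markers below the filter, Dcn and Lum were higher in the fit without it (log2 1.09 and 1.52, edgeR adjusted p = 0.00203 and 0.0129). Bglap and Lepr did not pass there. The part of macrophage and stromal cells in the lower Lyn and Fyn levels was not tested.

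Yes1, a widely expressed relative of Src and Fyn (ENSMUSG00000014932, plus strand, chr5:32611171-32687057), had 6.94, 7.61 and 10.2 CPM at day 5 and 8.97, 7.84 and 8.59 CPM at day 0. The days overlapped, and the log2 difference was -0.04 ± 0.16 (adjusted p = 0.863), with a sign that turned under other settings. Its exons share 635 bases with an opposite-strand gene, with the same limit as for Lyn. Lck (ENSMUSG00000000409, minus strand, chr4:129548344-129558391) had 0, 11 and 27 counts at day 5 and 0, 14 and 9 counts at day 0, which is at most 0.367 CPM. Its groups overlapped, and without the filter on low values its log2 difference was 0.75 ± 1.54 (adjusted p = 0.779). A count of 0 allows up to 3 counts, or 0.0410 CPM in replicate 1 of day 5 and 0.0485 CPM in replicate 1 of day 0, for counting error only. Of 17 T and NK cell markers in the table, 12 were below 1 CPM in every library. Among these were Cd3g and Cd247, subunits of the T cell receptor complex, and Klrd1, at 0 throughout. The 5 tested markers all passed, 3 as higher (Lat, Cd5 and Trac) and 2 as lower (Cd28 and Cd4), where 55.5% of all tested genes passed. At day 0 Lat and Cd5 had means of 0.127 and 0.147 FPKM, so they met the filter of 1 FPKM through day 5 alone. Cd28, at 0.737 FPKM at day 5 and 1.26 FPKM at day 0, met it mainly through day 0. For these 3 the filter itself favours a difference between the days. Trac, a gene of the T cell receptor, rose 2.13-fold to a day 5 mean of 4.39 CPM, from 2.06 (edgeR adjusted p = 8.83e-04). Cd5 rose 11.8-fold to a day 5 mean of 9.43 CPM, from 0.795 (edgeR adjusted p = 1.50e-07). The 17 together summed to 43.1 to 49.7 CPM at day 5 and 22.3 to 25.2 CPM at day 0. The most abundant of them at day 5, by FPKM, was Lat, an adaptor of T cells and other blood cells, at 18.7 ± 0.388 CPM, against 0.408 ± 0.173 CPM at day 0.

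Csk, which shuts SRC family kinases by phosphorylating their tail (ENSMUSG00000032312, minus strand, chr9:57626646-57645653), had 118, 108 and 103 CPM at day 5, against 137, 146 and 156 CPM at day 0. All 3 libraries of day 5 lay below those of day 0, by a modest margin. The means were 109.7 ± 7.76 CPM at day 5 and 146 ± 9.44 CPM at day 0, 1.33-fold lower at day 5 (log2 -0.41 ± 0.08, adjusted p = 7.56e-04). Cbl (ENSMUSG00000034342, minus strand, chr9:44142976-44234049) had 139.9, 126 and 113 CPM at day 5 and 221, 213 and 237 CPM at day 0. It fell 1.77-fold, with no overlap (log2 -0.82 ± 0.09, adjusted p = 9.66e-06). Cblb (ENSMUSG00000022637, plus strand, chr16:52031225-52208048) went the other way, with 83.9, 70.0 and 68.1 CPM at day 5 against 53.8, 47.7 and 65.8 CPM at day 0. The lowest library of day 5 was only just above the highest of day 0. The log2 difference was 0.41 ± 0.12 (adjusted p = 0.0126), and without replicate 1 of day 5 it was 0.31 and no longer passed (edgeR adjusted p = 0.0597). In exact permutation tests of CPM (two-sided), each of the 7 genes that passed had p = 0.1, below which 3 against 3 libraries cannot go. The same exact permutation test gave p = 0.9 for Yes1 and p = 0.7 for Lck.

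Levels can be compared between genes only per length, in FPKM. At day 5 Src was the most abundant of the 9 genes at 60.2 ± 2.89 FPKM, followed by Csk at 28.6 ± 1.73, Lyn at 23.4 ± 1.57, Fyn at 11.8 ± 0.492, Fgr at 10.4 ± 1.01, Cbl at 9.99 ± 0.942, Cblb at 6.89 ± 0.739, Yes1 at 1.07 ± 0.238 and Lck at 0.0567 ± 0.0603 FPKM. Neighbours in this order were apart in all 3 libraries, except that Fyn overlapped Fgr and Fgr overlapped Cbl. At day 0 Lyn led at 47.4 ± 1.36 FPKM, followed by Csk at 36.6 ± 2.89, Fyn at 19.3 ± 1.38, Cbl at 16.9 ± 0.973, Src at 14.7 ± 1.38, Cblb at 4.97 ± 0.832, Fgr at 4.40 ± 0.751, Yes1 at 1.05 ± 0.0529 and Lck at 0.0300 ± 0.0300 FPKM. There Fyn overlapped Cbl and Cblb overlapped Fgr. Src thus stood in position 1 at day 5 and in position 5 at day 0, and Lyn in positions 3 and 1.

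Among the 6 kinases, Src held the largest share of transcripts at day 5 and Lyn at day 0. The 6 kinases summed to 111.56, 105.95 and 103.2 FPKM at day 5, against 82.93, 88.68 and 88.93 FPKM at day 0, and the days did not overlap. Src made up 56.3% ± 1.16 of that sum at day 5 and 16.9% ± 0.958 at day 0, and Lyn 21.9% ± 0.860 at day 5 and 54.6% ± 0.636 at day 0 (SD, n = 3 each). Fyn made up 11.03% ± 0.878 at day 5 and 22.2% ± 0.738 at day 0, and Fgr 9.72% ± 0.554 at day 5 and 5.09% ± 1.07 at day 0. These shares describe transcripts and carry no test.

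**Figure D2:**
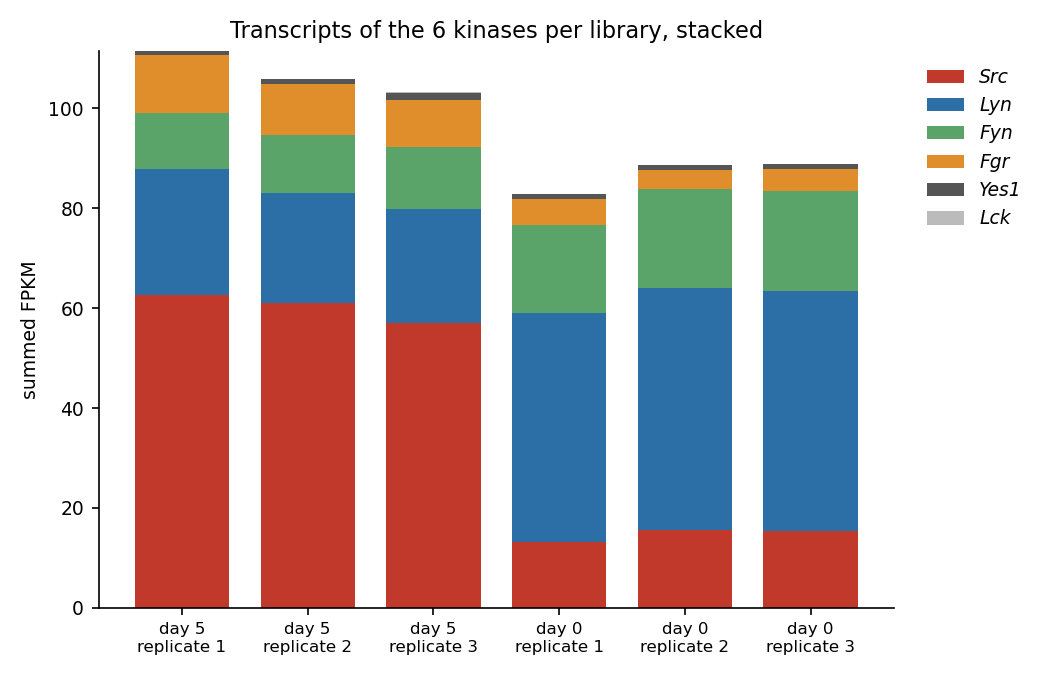
Summed FPKM (vertical axis, from 0) of Src, Lyn, Fyn, Fgr, Yes1 and Lck in each library, the 3 of day 5 on the left and the 3 of day 0 on the right; each colour is the FPKM of 1 gene. The whole bars reach 103.2 to 111.56 FPKM at day 5 and 82.93 to 88.93 FPKM at day 0, and the Src part is 57.03 to 62.65 FPKM at day 5 and 13.09 to 15.61 FPKM at day 0.

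Ratios within a library do not depend on how libraries are scaled. The ratio of Src to Lyn in FPKM was 2.49, 2.75 and 2.49 at day 5 and 0.285, 0.323 and 0.318 at day 0. The ratio of Src to its inhibitor Csk was 2.05, 2.18 and 2.09 at day 5 and 0.390, 0.421 and 0.390 at day 0. Both ratios were far apart between the days, with narrow ranges within a day. The 6 kinases together stood at 3.74 ± 0.0763 times the Csk level at day 5 and 2.38 ± 0.105 times at day 0, while Lyn alone stood at 0.817 ± 0.0249 times Csk at day 5 and 1.30 ± 0.0722 times at day 0. Cbl and Cblb summed to 16.9 ± 1.64 FPKM at day 5 and 21.9 ± 1.79 FPKM at day 0. Cblb was 40.8% ± 1.15 of that sum at day 5 and 22.6% ± 1.92 at day 0. Csf1r, the M-CSF receptor that CBL is known to ubiquitinate, fell beside Cbl, and the ratio of Cbl to Csf1r was 0.0484 ± 7.83e-04 at day 5 and 0.0512 ± 0.00102 at day 0.

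**Figure D3:**
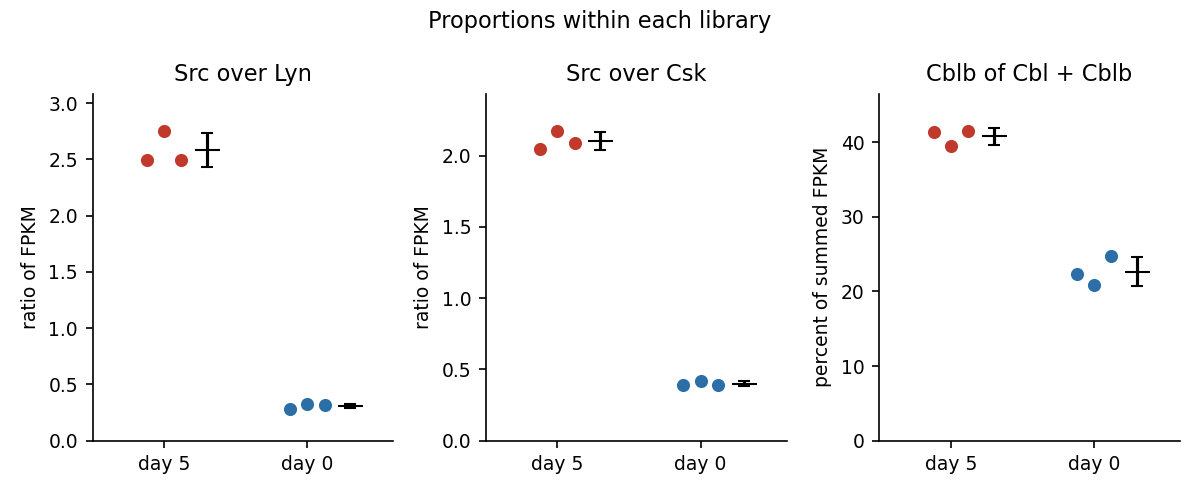
Ratio of Src to Lyn (left) and of Src to Csk (middle) in FPKM, and Cblb as a percentage of the summed FPKM of Cbl and Cblb (right), in the 3 libraries of day 5 (red) and of day 0 (blue); the bar beside each group is the mean ± SD and all axes start at 0. In each panel the libraries of day 5 lie above those of day 0.

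Promoter sequences are shown for Src and Fgr, the members that rose by 2-fold or more, and for Fyn, which fell. They are RefSeq windows for build GRCm38.p6, from 250 bases before to 50 after a transcription start, and 8 of the 9 genes had a window, Csk and Lck 2 each. Lyn had none in the table. Capitals mark matches on either strand to the motifs searched, which were TGANTCA (AP-1), GAGGAA (the core read by PU.1, a myeloid factor), TGGAAA (an NFAT core), GGGCGG (the GC box), CACGTG (an E-box read by MITF and TFE factors) and TATAAA (the TATA box). The windows are Src at chr2:157424043-157424342, Fgr at chr4:132973845-132974144 and Fyn at chr10:39369549-39369848, all on the plus strand. The Src and Fyn windows lie inside their genes as the deposited table places them, each at a start downstream of the first base of the gene.
Src: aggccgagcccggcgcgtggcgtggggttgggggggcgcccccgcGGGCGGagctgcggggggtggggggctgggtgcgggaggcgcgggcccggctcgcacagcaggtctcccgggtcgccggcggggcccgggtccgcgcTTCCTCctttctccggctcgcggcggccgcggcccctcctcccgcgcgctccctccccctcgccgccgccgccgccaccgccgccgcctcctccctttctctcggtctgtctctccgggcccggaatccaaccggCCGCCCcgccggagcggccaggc
Fgr: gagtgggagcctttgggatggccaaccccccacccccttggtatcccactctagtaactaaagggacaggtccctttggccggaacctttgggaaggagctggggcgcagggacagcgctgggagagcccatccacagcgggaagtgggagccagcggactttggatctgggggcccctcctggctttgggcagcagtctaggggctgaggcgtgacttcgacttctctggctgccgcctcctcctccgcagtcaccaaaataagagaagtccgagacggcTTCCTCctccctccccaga
Fyn: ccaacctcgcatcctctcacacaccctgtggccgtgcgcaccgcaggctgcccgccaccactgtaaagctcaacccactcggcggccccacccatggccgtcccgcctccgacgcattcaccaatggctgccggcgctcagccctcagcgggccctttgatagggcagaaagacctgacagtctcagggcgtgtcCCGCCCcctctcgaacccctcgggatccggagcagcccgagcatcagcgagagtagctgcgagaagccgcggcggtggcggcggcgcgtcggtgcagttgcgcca
The Src window was 82.3% G and C, the Fyn window 69.0% and the Fgr window 62.7%, where the median of all 32851 windows was 52.7%. Src held 1 PU.1 core, 108 bases upstream of the start on the minus strand, and 2 GC boxes. Fgr held 1 PU.1 core, at base 32 after the start, and Fyn 1 GC box, 55 bases upstream. The PU.1 core is in 28.3% of all windows and the GC box in 35.7%. None of the 10 windows of the 8 genes held the AP-1 letters (7.81% of all windows do), the NFAT core (21.4%), the E-box (7.15%) or the TATA box (13.6%). Such matches are letters in a window and not binding sites.

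The genes around the members gave a comparison by position. Not all of them were close, with distances from 249 bases (Mcam, beside Cbl) to 3603327 bases (Nfkbiz, beside Cblb). The 4 tested genes nearest to Src, 2 on each side, had log2 differences of -0.24 to 0.48, and none reached 1 in size, beside 1.98 for Src. The 4 nearest to Fgr had -0.39 to -0.25, beside 1.18 for Fgr. Over all 36 such neighbours of the 9 genes, 16 passed the test and 3 also reached a log2 difference of 1 in size, where 55.5% and 12.3% of all tested genes did. The 3 were Mcam beside Cbl (-1.44, with -0.82 for Cbl), Marcksl1 beside Lck (-1.56) and Fosl2 beside Yes1 (1.64).

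Outside the 9 genes, 1 further kinase of the CSK family rose strongly. Matk, which encodes a CSK-related kinase that can phosphorylate the same tail tyrosine, had 54.6, 52.9 and 48.3 CPM at day 5 and 5.30, 5.75 and 4.98 CPM at day 0. It rose 9.73-fold (log2 3.28 ± 0.10, adjusted p = 9.77e-10), while Csk fell. Blk, the family member of B cells, was at 0 in all 3 libraries of day 5 and at 0.0329 ± 0.0571 CPM at day 0, too low to be tested. Among the 9 B cell markers with a row, 5 were below 1 CPM in every library. The 3 tested ones were all lower at day 5, where 28.8% of all tested genes were lower. Of these 3, Cd22 met the filter mainly through day 0, with means of 0.757 FPKM at day 5 and 1.36 FPKM at day 0. The 9 together summed to 43.0 to 56.0 CPM at day 5 and 74.0 to 90.2 CPM at day 0. Blnk, an adaptor of B cells that myeloid cells also use, gave most of that sum, with 41.9 CPM at day 5 and 64.4 CPM at day 0.

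Phosphatases and adaptors that set the state of SRC family kinases moved in both directions. Of 17 tested genes 8 rose and 5 fell (median log2 0.26), 6 and 2 of them by 2-fold or more. Over all tested genes 26.6% were higher and 28.8% lower, 5.84% and 6.47% by 2-fold or more, with a median of -0.00, and the counts of the lists that follow are to be read against these shares. Ptpn22, a phosphatase that binds CSK and acts on SRC family kinases in lymphocytes, rose 7.03-fold, to 91.6 ± 4.39 CPM at day 5, against 13.0 ± 1.32 CPM at day 0 (adjusted p = 1.65e-09). Pstpip1, an adaptor that joins the phosphatase PTPN12 to the actin regulator WASP, rose 5.68-fold, to 329.8 ± 11.9 CPM against 58.0 ± 1.72 CPM at day 0. Ptpn12 itself, which acts on podosome proteins, rose 2.42-fold, to 191 ± 5.17 CPM against 78.9 ± 7.17 CPM at day 0, and Ptpn18, of the same phosphatase subfamily, rose 2.95-fold. Rack1, a scaffold that binds SRC and by FPKM the most abundant of the list, stood at 901 ± 37.7 CPM at day 5, against 791 ± 76.0 CPM at day 0 and did not pass (adjusted p = 0.0831). A further 3 genes of the list were chosen after their values were seen. Ptpra, a receptor phosphatase that opens SRC by removing the tail phosphate, fell to 147 ± 4.80 CPM at day 5, against 257 ± 6.42 CPM at day 0 (log2 -0.81 ± 0.06, adjusted p = 1.11e-06). The related Ptpre, which in mouse osteoclasts is known to activate SRC, rose to 125 ± 3.08 CPM against 61.8 ± 5.42 CPM at day 0, 2.02-fold higher (adjusted p = 6.77e-07). Pag1, the membrane adaptor that docks CSK, fell to 12.02 ± 0.284 CPM against 27.0 ± 0.474 CPM at day 0 (log2 -1.17 ± 0.09, adjusted p = 7.98e-07). Other adaptors of the list went both ways. Also named after their values were seen, Dok3 rose 2.38-fold and Dok1 1.19-fold, while Dok2 fell 2.22-fold, and each passed.

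Substrates of SRC and its partners in podosomes included both large rises and falls of less than 2-fold. Of 38 tested genes 10 rose and 20 fell (median log2 -0.20), but 4 of those that rose and 0 of those that fell reached 2-fold, beside 26.6% higher and 28.8% lower among all genes, and 5.84% and 6.47% at 2-fold. The 4 were Itgb3 and Itgav, the chains of the vitronectin receptor through which SRC is activated in osteoclasts, Dock5, a Rac activator, and Rac2. Itgb3 stood at 425 ± 27.9 CPM at day 5, against 27.4 ± 4.08 CPM at day 0 (log2 3.95 ± 0.12, adjusted p = 7.91e-10), and Itgav 859 ± 23.7 CPM at day 5 and 330.1 ± 54.1 CPM at day 0 (log2 1.38 ± 0.11, adjusted p = 9.59e-07). Dock5 rose 5.27-fold and Rac2 3.36-fold. The largest fall, named after its values were seen, was that of Nedd9, just short of 2-fold (log2 -0.98 ± 0.08, adjusted p = 1.53e-06). Gsn, the actin-severing protein gelsolin and by FPKM the most abundant of the list, stood at 831 ± 39.1 CPM at day 5, against 978 ± 38.6 CPM at day 0 (log2 -0.24 ± 0.07, adjusted p = 0.0188).

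Among partners of CBL proteins, falls outnumbered rises. Of 21 tested genes 1 rose and 11 fell (median log2 -0.21), 4 of the falls by 2-fold or more, where 55.5% of all genes passed, 26.6% higher and 28.8% lower, and 6.47% were lower by 2-fold. Sla, an adaptor that brings CBL to receptors, fell 2.94-fold, to 10.6 ± 0.629 CPM at day 5 against 31.3 ± 2.31 CPM at day 0 (adjusted p = 1.83e-07). Ubash3b, a phosphatase that binds CBL, fell 2.20-fold, and Gab1, a docking protein downstream of receptor kinases, 2.11-fold. Ube2d3, a ubiquitin-conjugating enzyme, was the 1 that rose, by 1.18-fold (adjusted p = 0.0112). Nedd4, another ubiquitin ligase and by FPKM the most abundant of the list, stood at 856 ± 24.9 CPM at day 5, against 1053 ± 72.6 CPM at day 0 (log2 -0.30 ± 0.08, adjusted p = 0.00691). Of 12 tested receptor kinases and RANK, a group that holds known CBL targets, 2 rose and 8 fell (median log2 -0.38), against 26.6% and 28.8% of all genes. Met, the receptor of hepatocyte growth factor, stood at 74.5 ± 5.37 CPM at day 5, against 5.53 ± 0.978 CPM at day 0 (log2 3.75 ± 0.13, adjusted p = 2.21e-09). Mertk, a receptor for dying cells, stood at 29.8 ± 6.32 CPM at day 5, against 140.0 ± 6.98 CPM at day 0 (log2 -2.23 ± 0.13, adjusted p = 7.44e-08). Tnfrsf11a, which encodes RANK, rose 1.78-fold, and Csf1r, by FPKM the most abundant of the group, fell 1.67-fold.

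**Figure D4:**
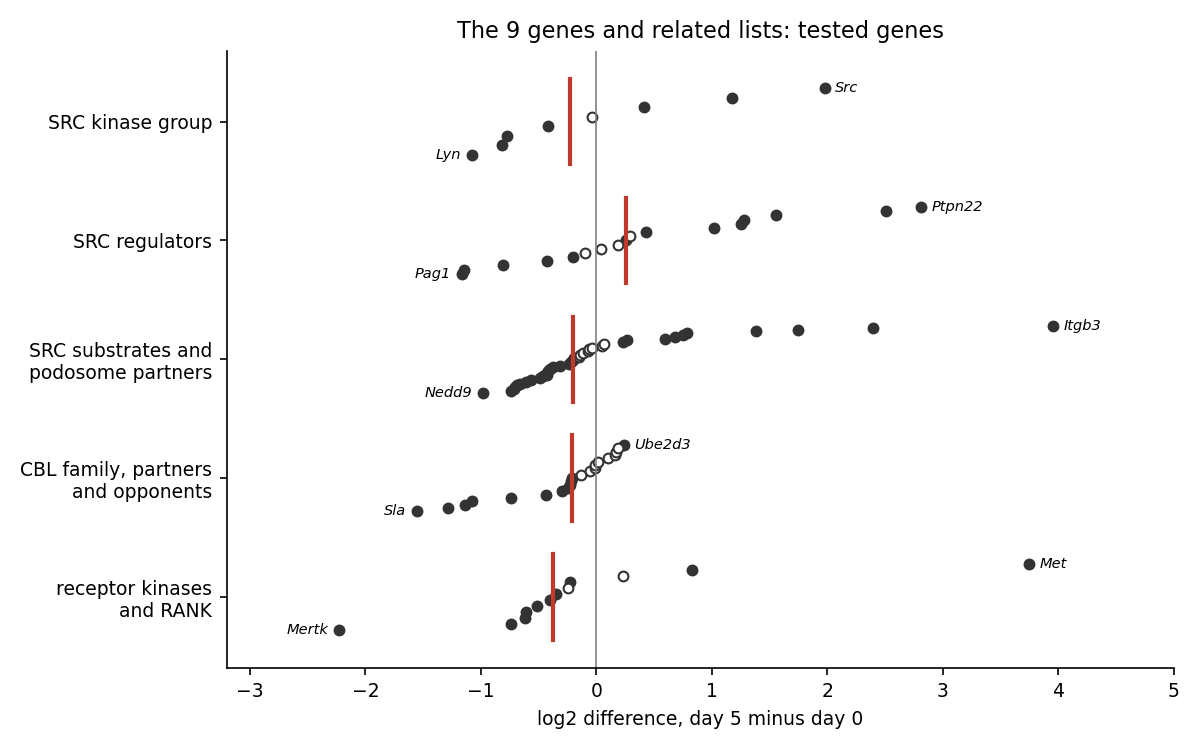
Log2 difference, day 5 minus day 0 (horizontal axis), of each tested gene among the 9 members and in 4 related lists; filled points passed at an adjusted p under 0.05, open points did not, red bars are list medians, and the lowest and highest gene of each list is named. The members span -1.08 (Lyn) to 1.98 (Src), and the medians of the 4 lists lie between -0.38 and 0.26.

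The tested genes whose profiles over the 6 libraries were most like that of Src were found by Euclidean distance of log2 CPM, each profile centred on its own mean. They were Bhlhe40, a transcriptional repressor, at a distance of 0.11, then Ankrd13b at 0.13, Rnf19b at 0.16, Dot1l, a histone methyltransferase, at 0.18 and Dennd2a at 0.18. Per length, Bhlhe40 had a mean of 57.3 FPKM at day 5 and 14.3 FPKM at day 0, beside 60.2 and 14.7 FPKM for Src. For Lyn, the member with the lowest log2 difference, they were Arhgap30 at 0.07, Arhgap22 at 0.08, Rassf5 at 0.08, Rap2a at 0.08 and Nuak1 at 0.09.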

How the data were processed

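Libraries came from poly(A) RNA by a dUTP protocol and were sequenced in pairs, per the labels' protocols. Tools named, per the submitters' processing notes, are edgeR, fastp, HISAT2 and StringTie, with the human build GRCh38. Gene IDs are mouse, and 28722 of 28795 are in GENCODE M21 (GRCm38), 90.4% with the same start and end, although Src, Lck and Csk differ in a start or end. The authors deposited whole-number counts per gene, per the file headers, and FPKM values that they scaled for length and depth.

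Counts were fitted with edgeR 4.0.16 (R 4.3.3), with TMM scaling and no replicate block. The filter was 1 FPKM or more in 3 or more libraries, and Benjamini-Hochberg adjusted p-values cover all 11908. The SE came from the log2 difference and the F statistic. Scripts were tested on simulated data. Alternatives were DESeq2 1.42.0, limma 3.58.1 on log2(FPKM + 1) or log2(FPKM + 0.1), other scalings and filters, a robust fit, a replicate block and each library left out. The members and lists were chosen with earlier results of these data known. Named were all members, from each pathway list up to 4 passing genes with the largest difference and the most abundant gene, and the profiles most alike. A few genes under this rule are not reported here.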

Additional observations from a re-analysis of the deposited data

How the results depend on the processing

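The 7 members that passed kept their direction under all 17 alternatives, and 6 of them also passed under each. Cblb was the exception, with a log2 difference of 0.31 without replicate 1 of day 5 (edgeR adjusted p = 0.0597) and 0.31 to 0.57 over all alternatives. Src ranged from 1.93 to 2.03, Fgr from 1.08 to 1.35, Lyn from -1.14 to -0.99, Fyn from -0.80 to -0.66, Cbl from -0.90 to -0.71 and Csk from -0.47 to -0.34. Yes1, which did not pass, had its sign turned to 0.0247 with library totals in place of TMM, to 0.00816 in limma on log2(FPKM + 1) and to 0.00693 on log2(FPKM + 0.1), and ranged from -0.218 to 0.0736 with a library left out. It was not tested at an FPKM of at least 5. The number of members passing ranged from 6 to 7 with a library left out and was 7 otherwise. The 1465 genes over the whole table with a change of 2-fold or more became 2303 without the filter, 2366 with filterByExpr, 839 at an FPKM of at least 5 and 973 in limma on log2(FPKM + 1). With the replicate number as a block 6672 genes passed, against 6608 without it, and 7 members passed in both. Same-numbered libraries deviated together with correlations of -0.07, 0.15 and 0.03, so the numbers are not taken to pair the libraries. Depth limits only Lck, at 0 to 27 counts per library.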
